A study of Mus musculus with 7 samples.

Results

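POU genes encode transcription factors that bind octamer-like DNA through a POU-specific domain joined to a homeodomain. The genes described here are 10 members or partners of that family other than Pou5f1, chosen by name, out of 21887 protein-coding genes. They are Pou2f1, Pou2f2, Pou2f3, Pou3f1, Pou3f2, Pou3f3, Pou4f1, Pou6f1, Pou1f1 and Pou2af1, and all 10 were found in the gene table. Oct1, the factor that was profiled, is the product of Pou2f1 itself, so the data show where the factor was bound at its own gene and at the genes of its relatives.

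The study used chromatin immunoprecipitation and sequencing (ChIP-seq) to map binding in parental embryonic stem cells (ESCs) of the mouse. There was 1 library for each of 4 groups, all of the genotype labelled Parental. The 3 Oct1 libraries were made with the same antibody. The groups were Oct1 in undifferentiated ESCs, Oct4 (the product of Pou5f1) in undifferentiated ESCs, and Oct1 at day 3 and at day 6 of differentiation towards mesoderm. Differentiating cells received N2B27 medium with Bmp4 for 2 days, followed by 4 days of Rspo3 and the BMP receptor inhibitor LDN-193189. The data are the authors' peak lists, with 17709 peaks for ESC Oct1, 22817 for ESC Oct4, 4867 for day 3 Oct1 and 7758 for day 6 Oct1. Each peak carries a whole-number score from the authors without a stated unit, so a score is given with its rank or percentile (the share of the same list with a lower score) and is not compared between lists. Each group being a single library, differences between groups have no replicate check and no p-value is given. The lists hold no expression values, so neither the cell identity nor the expression of any POU gene could be checked, and a peak is a record of binding, not of regulation. The lists give no read counts, so the depth behind a peak is unknown beyond the stated sequencing target, and a gene without a listed peak is one where no peak passed the authors' threshold, not one shown to be unbound.

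As background, POU factors are grouped into classes by their sequence. Oct1 is made in nearly all cells, whereas its closest relatives Oct2 (Pou2f2) and Skn-1a (Pou2f3) are known from lymphocytes and from epidermal and tuft cells. OCA-B (Pou2af1) is not a DNA-binding POU protein but a coactivator that B cells load onto Oct1 and Oct2. Oct6 (Pou3f1), Brn2 (Pou3f2) and Brn1 (Pou3f3) act in the epiblast and in neural cells, Brn3a (Pou4f1) acts in sensory neurons, and Pit-1 (Pou1f1) acts in the pituitary. Pou6f1 encodes Brn5, a more distant relative. POU factors are well known for binding to their own genes and to those of other members.

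The sequences that frame the result are promoters of genes with and without an Oct1 peak at the start. They are the 250 bases before the gene start from RefSeq (GRCm38.p6), read 5′ to 3′ on the strand of the gene, with every CG dinucleotide in capitals. The first 4 were covered by Oct1 peaks at day 3 and day 6, and the last 2 overlapped none in any list.
Pou2f1, chr1:166002635-166002884, minus strand: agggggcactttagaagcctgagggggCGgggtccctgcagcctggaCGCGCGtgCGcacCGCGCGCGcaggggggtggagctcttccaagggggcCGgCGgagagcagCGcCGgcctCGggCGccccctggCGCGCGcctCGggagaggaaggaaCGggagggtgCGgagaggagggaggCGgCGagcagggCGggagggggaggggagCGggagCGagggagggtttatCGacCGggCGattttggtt
Pou3f2, chr4:22488367-22488616, minus strand: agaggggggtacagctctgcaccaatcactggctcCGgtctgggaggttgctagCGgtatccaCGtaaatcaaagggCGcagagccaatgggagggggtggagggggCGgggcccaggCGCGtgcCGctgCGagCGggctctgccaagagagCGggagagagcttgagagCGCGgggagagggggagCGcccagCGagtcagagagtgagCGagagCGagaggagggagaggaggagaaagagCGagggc
Pou3f3, chr1:42695518-42695767, plus strand: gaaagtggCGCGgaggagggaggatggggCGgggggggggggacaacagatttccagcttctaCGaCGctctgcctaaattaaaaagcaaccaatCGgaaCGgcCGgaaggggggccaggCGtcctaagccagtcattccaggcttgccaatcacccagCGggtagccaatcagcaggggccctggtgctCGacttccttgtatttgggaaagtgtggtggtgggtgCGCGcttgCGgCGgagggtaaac
Pou6f1, chr15:100599985-100600234, minus strand: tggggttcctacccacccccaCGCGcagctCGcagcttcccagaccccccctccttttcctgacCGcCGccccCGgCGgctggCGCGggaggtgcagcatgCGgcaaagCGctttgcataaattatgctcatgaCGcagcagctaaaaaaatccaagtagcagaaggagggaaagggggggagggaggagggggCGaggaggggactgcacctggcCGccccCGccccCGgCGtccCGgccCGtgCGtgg
Pou4f1, chr14:104468000-104468249, minus strand: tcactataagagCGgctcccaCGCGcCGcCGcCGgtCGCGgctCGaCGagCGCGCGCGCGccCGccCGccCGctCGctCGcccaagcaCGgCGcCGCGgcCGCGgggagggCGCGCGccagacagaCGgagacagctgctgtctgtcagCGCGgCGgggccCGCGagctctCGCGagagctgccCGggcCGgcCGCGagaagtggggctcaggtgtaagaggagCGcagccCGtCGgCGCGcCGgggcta
Pou2af1, chr9:51213440-51213689, plus strand: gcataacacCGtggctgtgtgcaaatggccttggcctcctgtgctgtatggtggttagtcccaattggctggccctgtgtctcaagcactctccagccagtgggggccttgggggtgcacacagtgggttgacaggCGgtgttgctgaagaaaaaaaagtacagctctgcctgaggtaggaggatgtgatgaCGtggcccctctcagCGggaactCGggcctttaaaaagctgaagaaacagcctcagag
The sequence of Pou2af1 holds 5 CG dinucleotides in these 250 bases, against 29 for Pou2f1, 18 for Pou3f2, 15 for Pou3f3, 20 for Pou6f1 and 47 for Pou4f1.

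Peaks that touched the gene or lay at most 10 kb from it were listed at 8 of the 10 genes in at least 1 list, and Pou1f1 and Pou2af1 had none. The share of all protein-coding genes with a peak in at least 1 list was not computed for 10 kb. This count therefore has no background, unlike the counts per list that follow. ESC Oct1 peaks lay at 3 genes, Pou2f1, Pou2f2 and Pou2f3. The background was 35.2% of all protein-coding genes, so 3 of 10 is near it. These 3 are of the Oct1 class and are also the longest of the 10 (138, 93.4 and 81.8 kb, the others at most 26.4 kb), so class and length cannot be told apart. ESC Oct4 peaks lay at 5 genes (Pou2f2, Pou2f3, Pou3f1, Pou3f2 and Pou6f1), near the background of 40.2%. At day 3 Oct1 peaks lay at 7 genes, namely Pou2f1, Pou2f2, Pou2f3, Pou3f1, Pou3f2, Pou3f3 and Pou6f1, against a background of 24.6%. At day 6 they also lay at 7, with Pou4f1 in place of Pou2f3, against 41.5%. Pou2f2 was counted at both times through a peak nearer to another gene. By the nearest protein-coding gene alone, 6 genes remained at day 3 and 6 at day 6, and no background was computed for that assignment. No Oct1 peak within 10 kb in ESCs and a peak at both later times was the pattern of 4 genes, Pou3f1, Pou3f2, Pou3f3 and Pou6f1, and of 9.34% of all protein-coding genes.

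**Figure D1:**
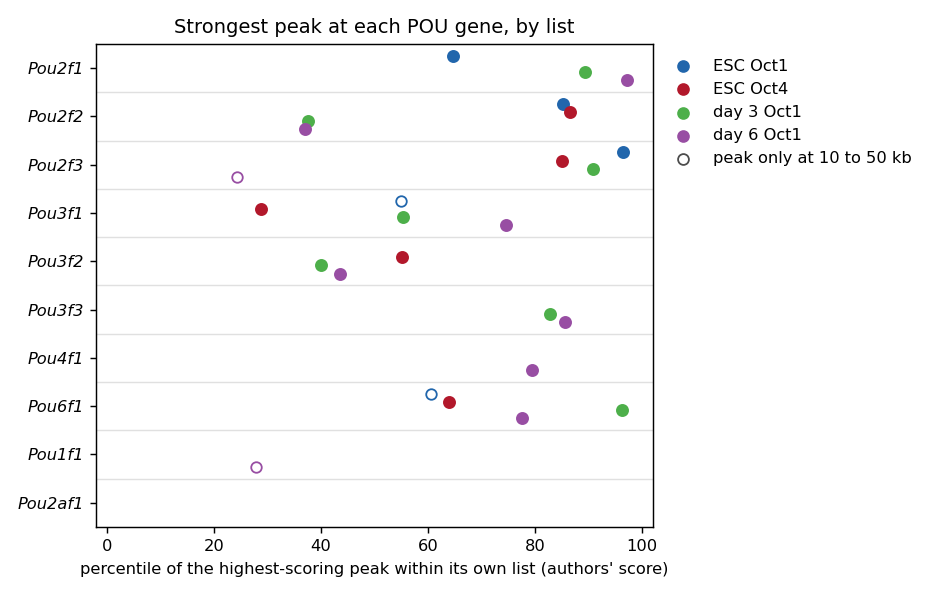
Percentile of the highest-scoring peak at each POU gene within its own list (horizontal axis, authors' score), with 1 colour per list. Filled points are peaks on the gene or at most 10 kb from it and open points are genes whose peaks all lay 10 to 50 kb away. Pou2f1 reached percentile 97.2 at day 6, Pou2f3 96.4 in the ESC Oct1 list and Pou6f1 96.3 at day 3, and Pou2af1 has no point.

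Widening the window to 50 kb added 2 genes for ESC Oct1 and 2 for day 6, and none for ESC Oct4 and day 3. ESC Oct1 peaks were then listed at 5 genes (background 58.7%), ESC Oct4 peaks at 5 (62.5%), day 3 peaks at 7 (41.5%) and day 6 peaks at 9 (57.9%). Pou1f1 had a day 6 peak 27403 bp away and Pou2af1 had no peak in any of the 4 lists. The background also differed between classes of gene length. For genes under 20 kb, to which 5 of the 10 belong, the 10 kb background was 28.3% for ESC Oct1, 33.7% for ESC Oct4, 20.7% for day 3 and 36.1% for day 6. For genes of 20 to 100 kb, with 4 of the 10, it was 41.3%, 45.8%, 29.0% and 48.8% in the same order. For genes over 100 kb, the class of Pou2f1, it was 49.9%, 54.6%, 30.1% and 45.0%.

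**Figure D2:**
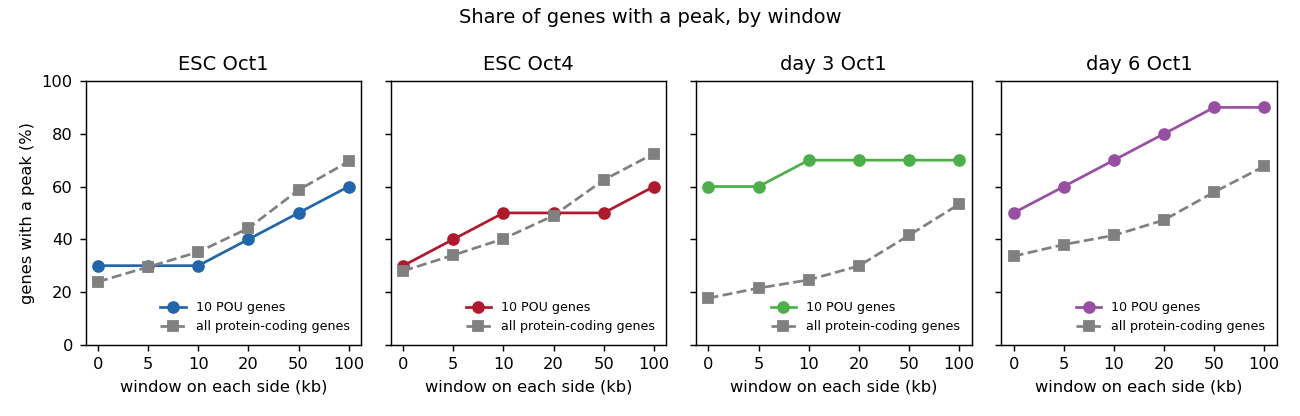
Share of the 10 POU genes (coloured circles) and of all protein-coding genes (grey squares) with a peak, in percent, by the window added on each side of the gene body in kb, with 1 panel per list. The POU genes lay near the background in the ESC lists, and above it at day 3 (70% against 24.6% at 10 kb) and at day 6 (70% against 41.5%). Both values of 70% include Pou2f2, whose later peaks within 10 kb lay nearer to Zfp574.

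Of the later Oct1 peaks within 10 kb, 6 of 7 at day 3 and 5 of 8 at day 6 covered an end of the member gene. Within 50 kb it was 6 of 9 and 5 of 18. Over the whole lists 45.5% of day 3 peaks and 64% of day 6 peaks covered an end of some protein-coding gene. That measure is wider, since the counts at the members leave out peaks over an end of a neighbour, such as Dazap2 or Chmp2b. The whole-list shares are therefore no background for the 50 kb counts. A day 3 peak covered an end of 6 of the 10 genes, where 11.6% of all protein-coding genes had such a peak. A day 6 peak covered an end of 5, against 26.0%. These 5 (Pou2f1, Pou3f1, Pou3f2, Pou3f3 and Pou6f1) had a peak over an end in both lists, against 10.1% of all genes. In ESCs an Oct1 peak covered an end of Pou2f1 alone (background 4.79%), and an Oct4 peak covered an end of none of the 10 (background 3.76%).

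Pou2f1 (gene ID 18986; chromosome 1, 165865150 to 166002749, minus strand) was the only member with an Oct1 peak at its start at all 3 times. The ESC peak was not among the 4867 highest scores of its list, so with lists of equal length Pou2f1 had 0 ESC Oct1 peaks. In ESCs the peak spanned 166002151 to 166002850 and scored 142, which was rank 6234 of 17709 (percentile 64.7). At day 3 it spanned 166001991 to 166003620 and scored 599, rank 517 of 4867 (percentile 89.3). At day 6 it spanned 166001831 to 166003630 and scored 2231, rank 219 of 7758 (percentile 97.2). The midpoints lay 134, 171 and 96 bp from the annotated start at 166002634, and the narrower ESC peak was contained in both later ones. The day 3 and day 6 peaks were among the widest of their lists, at 1630 bp (percentile 99.8) and 1800 bp (percentile 99.7), where the median peak was 600 and 640 bp wide.

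No ESC Oct4 peak lay at Pou2f1 within 50 kb, so in this window the gene of Oct1 had peaks of its own product and none of Oct4. In the same window 66.4% of protein-coding genes over 100 kb had an ESC Oct4 peak. Within 100 kb, Pou2f1 was also among the members with an ESC Oct4 peak. Another ESC Oct1 peak, at 165860851 to 165861380, lay 3770 bp beyond the far end of the gene, scored 71 (percentile 20.1) and touched the neighbouring gene Cd247. The other 2 annotated starts of Pou2f1, at 165953071 and 165934948, overlapped no peak in any list. Against other peaks on promoters (the 300 bases from 250 before to 50 after a gene start), the Pou2f1 peak stood at percentile 29.8 of 953 in ESCs, 86.9 of 2239 at day 3 and 96.7 of 4933 at day 6.

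**Figure D3:**
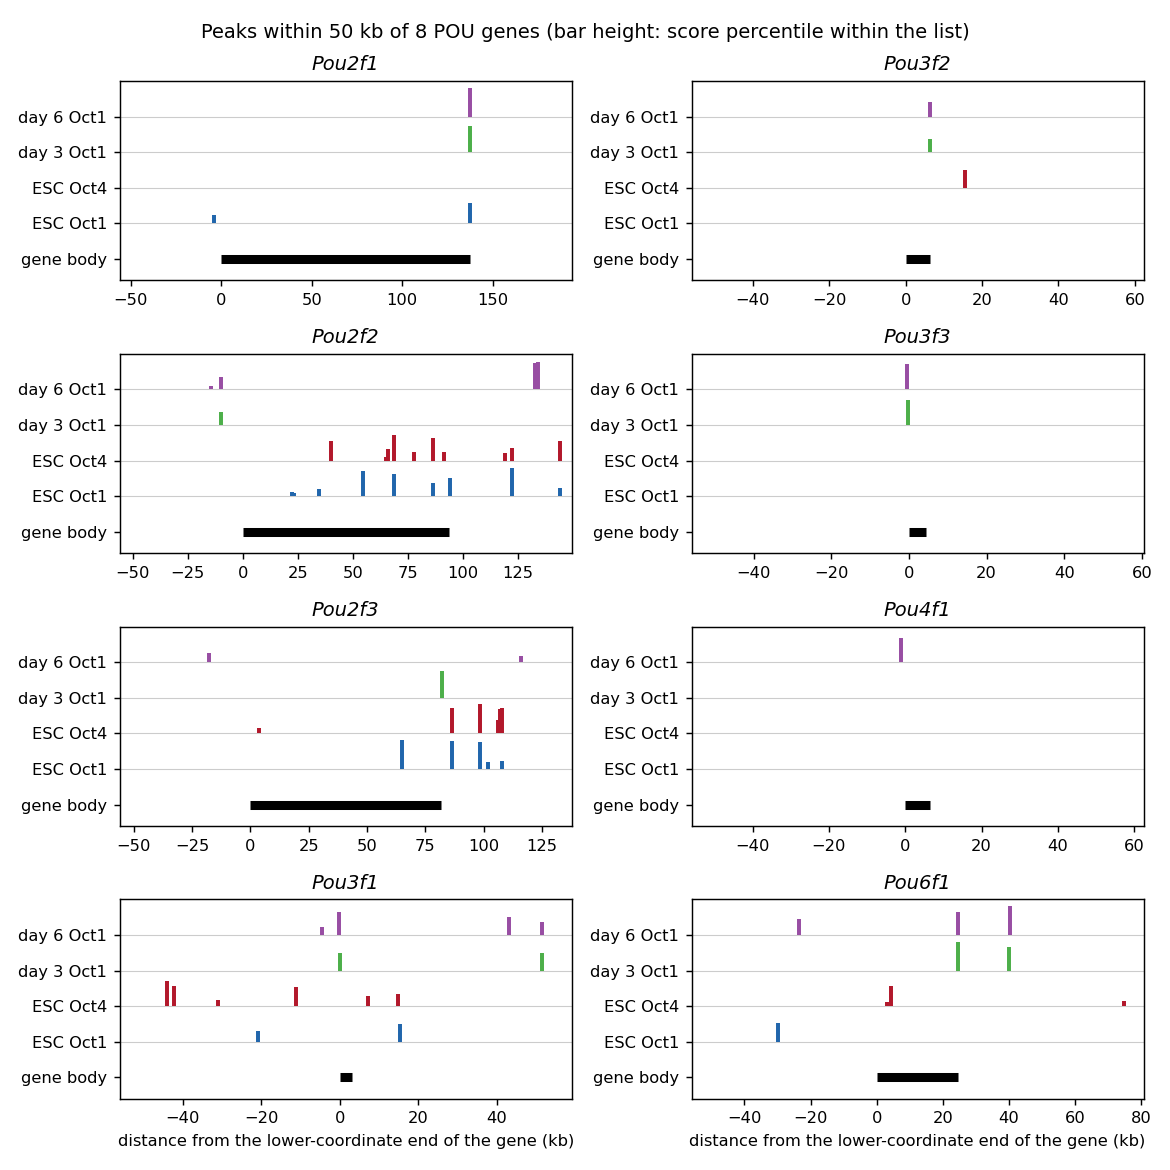
Peaks of the 4 lists within 50 kb of 8 POU genes, drawn by distance from the lower-coordinate end of the gene body in kb (black bar). Each bar is a peak at its midpoint and its height is the score percentile within the list. Oct1 peaks at the end of Pou2f1 line up in ESCs, at day 3 and at day 6, whereas Pou2f2 and Pou2f3 carry spread ESC peaks and few later ones.

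Pou2f2 (gene ID 18987; chromosome 7, 25087350 to 25180797, minus strand) had the most peaks of the 10, with 16 within 10 kb in the 4 lists together. In ESCs there were 7 Oct1 and 7 Oct4 peaks, and 6 of the 7 Oct1 peaks and all Oct4 peaks touched the gene body. The remaining Oct1 peak, with score 123 (percentile 58.3), lay 484 bp beyond the higher-coordinate end of the gene, which is its upstream end. Oct1 was strongest at 25141691 to 25142250, with score 255 (rank 2487, percentile 85.3), where no Oct4 peak overlapped. At 25155311 to 25156430 an Oct1 peak with score 166 (percentile 71.8) overlapped the strongest Oct4 peak of the gene, with score 243 (rank 3032, percentile 86.6). A weaker pair overlapped at 25173541, with Oct1 at percentile 37.1 and Oct4 at 75.4. None of these sites had an Oct1 peak later. The later peaks counted for Pou2f2 (day 3 percentile 37.6 and day 6 percentile 37.0) lay 9750 and 9790 bp away inside Zfp574, nearer to that gene than to Pou2f2.

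Pou2f3 (gene ID 18988; chromosome 9, 43123927 to 43205755) had the highest ESC Oct1 percentile of the 10. Its peak inside the gene at 43188211 to 43189890 was 1680 bp wide and scored 625 (rank 639, percentile 96.4), with no Oct4 peak. Beyond the higher-coordinate end, 4336 bp away, an Oct1 peak with score 387 (percentile 92.7) overlapped an Oct4 peak with score 239 (percentile 85.1). Farther out, 16146 bp from Pou2f3 and inside Oaf, an Oct1 peak with score 380 (rank 1311) overlapped an Oct4 peak with score 716, which at rank 111 of 22817 was the highest-ranked Oct4 peak in any 50 kb window of the 10 genes. At day 3 a single Oct1 peak covered the higher-coordinate end of Pou2f3 itself (43205721 to 43206240, score 661, rank 446, percentile 90.8), a site with no peak in ESCs. It was not listed again at day 6, which made Pou2f3 the only member with a peak over an end at day 3 and not at day 6.

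Pou2af1 (gene ID 18985; chromosome 9, 51213690 to 51240079, plus strand), the gene of the coactivator, is the only member without a peak within 50 kb in any list. Pou2af1 is 26.4 kb long. Of protein-coding genes of 20 to 100 kb, 15.3% likewise had no peak in any of the lists. In that class and window 62.5% of genes had an ESC Oct1 peak, 65.9% an ESC Oct4 peak, 45.2% a day 3 and 65.2% a day 6 Oct1 peak.

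Pou3f1, Pou3f2 and Pou3f3 shared a pattern of peaks at an end of the gene at day 3 and day 6. At Pou3f3 (gene ID 18993; chromosome 1, 42695768 to 42700210, plus strand) the day 3 peak at 42695321 to 42695870 scored 453 (rank 819, percentile 82.9). The day 6 peak at 42694741 to 42695990 was wider, at 1250 bp, and scored 1215 (rank 1112, percentile 85.6). Both peaks also touched the gene Gm46091, and the day 6 peak the noncoding gene Pantr1, so they cannot be given to Pou3f3 alone. No ESC peak of either factor lay within 50 kb of Pou3f3.

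At Pou3f2 (gene ID 18992; chromosome 4, 22482095 to 22488366, minus strand) the peaks were weaker. The day 3 peak at 22488181 to 22488750 scored 153 (rank 2910, percentile 40.0) and the day 6 peak at 22488201 to 22488930 scored 439 (rank 4362, percentile 43.6). Both covered the gene start and stood below the median of their lists, at 194 and 508. In ESCs Pou3f2 had an Oct4 peak 8765 bp beyond that end (score 151, percentile 55.1) and no Oct1 peak within 50 kb.

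At Pou3f1 (gene ID 18991; chromosome 4, 124657646 to 124660655) the day 3 peak at 124657221 to 124658000 scored 220 (rank 2163, percentile 55.3) and the day 6 peak at 124657131 to 124657870 scored 902 (rank 1970, percentile 74.6). They covered the lower-coordinate end of Pou3f1 and touched the gene model Gm2164. A weaker day 6 peak (score 183, percentile 18.0) lay 4276 bp away. In ESCs Pou3f1 had 6 Oct4 peaks within 50 kb, from percentile 12.4 to 85.1, of which the nearest was 3766 bp from the gene. ESC Oct1 had 2 peaks in that window, 11906 and 20516 bp away, and the nearer overlapped an Oct4 peak.

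Pou4f1 (gene ID 18996; chromosome 14, 104461675 to 104468118, minus strand) had 1 peak in all, an Oct1 peak at day 6. It lay at 104460231 to 104461130, 545 bp beyond the 3′ end, and scored 1022 (rank 1595, percentile 79.4). The peak midpoint of Pou4f1 was 7319 bp from the annotated start, so the promoter printed above did not overlap it. Pou6f1 (gene ID 19009; chromosome 15, 100575318 to 100600061, minus strand) had its start covered at day 3 by a peak at 100599401 to 100600410, which scored 1183 (rank 182, percentile 96.3). At day 6 a peak at 100599561 to 100600480 scored 978 (rank 1732, percentile 77.6). Pou6f1 thus held the highest day 3 percentile of the 10 genes. In ESCs it had 2 Oct4 peaks inside the gene (percentiles 3.59 and 63.9) and no Oct1 peak within 10 kb. Pou1f1 (gene ID 18736; chromosome 16, 65520512 to 65535018, plus strand) had only the distant day 6 peak (score 282, percentile 27.9), which covered an end of Chmp2b.

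Sharing of single sites between lists was then counted. Of 11 ESC Oct1 peaks within 10 kb of the members, 3 overlapped an ESC Oct4 peak (27.3%), where 59.1% of all ESC Oct1 peaks did. Within 50 kb it was 8 of 19 (42.1%). Of the 11, 7 lay at Pou2f2, and peaks at a gene are not replicates, so these shares are descriptions. Within 10 kb, only the peak at the start of Pou2f1 was shared with the later Oct1 lists, 1 of 11 for day 3 and for day 6 (9.09%), against 8.88% and 6.66% of all ESC Oct1 peaks. Of 7 day 3 peaks at the members, 6 overlapped a day 6 peak (85.7%), and 8 of 9 within 50 kb (88.9%), against 58.5% of all day 3 peaks. The exception was the peak at the end of Pou2f3. Of the 7, 6 covered a gene end, as did 45.5% of all day 3 peaks, so the 58.5% covers a different mix of peaks. Over all protein-coding genes, 2531 had a day 3 peak over an end, and 2218 of them also had a day 6 peak over an end. Sharing of this kind is therefore not particular to the POU genes.

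Base composition of the promoters went with the day 3 and day 6 Oct1 peaks. Promoter sequences were in the table for 8 of the 10 genes, as 11 starts; those of Pou2f3 and Pou3f1 were not matched. The ratio of observed to expected CpG was 0.6 or more at 5 member promoters, namely Pou2f1 (its first start, 1.01), Pou3f2 (0.824), Pou3f3 (0.699), Pou4f1 (1.24) and Pou6f1 (0.702). All but that of Pou4f1 overlapped an Oct1 peak both at day 3 and at day 6, and 0 of the 6 member promoters under 0.6 overlapped a peak in any list. Those 6 are not 6 separate genes. They are the inner starts of Pou2f1, both starts of Pou1f1, the start of Pou2af1 and a start of Pou2f2 that lies inside that gene. Over all protein-coding genes, 24.9% of promoters at or above 0.6 overlapped a day 3 peak and 55.8% a day 6 peak, against 2.73% and 5.48% of those under 0.6. In ESCs the shares at or above 0.6 and under it were 5.35% and 5.23% for Oct1 and 2.55% and 4.91% for Oct4. Without the split by CpG, 5.29% of all promoters overlapped an ESC Oct1 peak, 3.79% an ESC Oct4 peak and 13.3% a day 3 Oct1 peak. The 4 of 5 at day 6 is therefore to be read against 55.8%. Of all 11 member promoters, 4 overlapped a day 3 peak and 4 a day 6 peak, against 13.3% and 29.5% of all 21263 promoters. The split by CpG was chosen after seeing the data, and the part of CpG content in these counts was not tested.

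**Figure D4:**
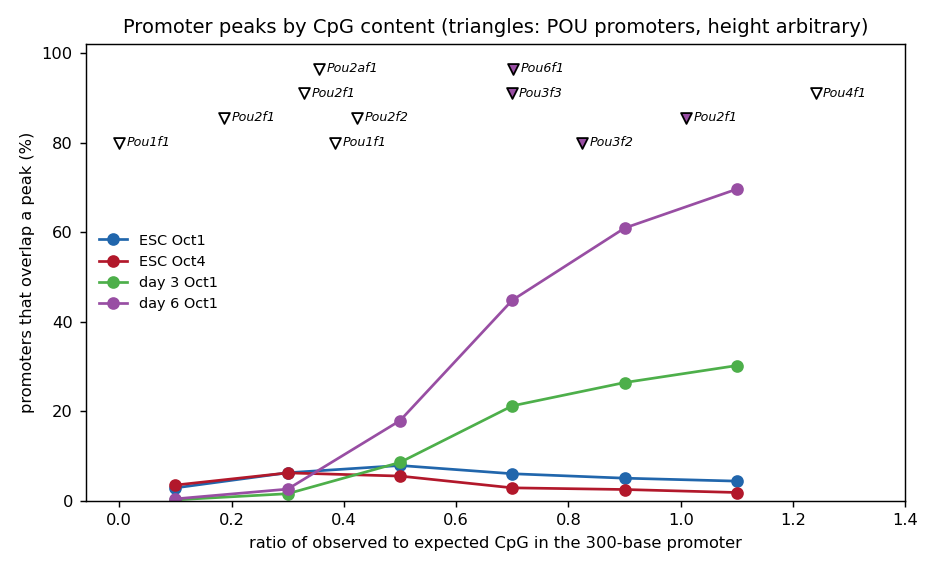
Share of promoters of protein-coding genes that overlap a peak, in percent, by the ratio of observed to expected CpG in the 300 bases around the start, with 1 line per list and points at the middle of each class of ratio (the last class is open-ended). Triangles mark the 11 POU promoters at their own ratio, filled where a day 6 Oct1 peak overlaps; their height has no meaning. The day 6 share climbs from 0.426% to 69.6% across the classes, and the filled triangles all lie at 0.6 or above.

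The octamer itself, searched as ATGCAAAT on both strands, was in none of the 11 member promoters and in 1.66% of all 21263. The looser ATGCNAAT, which includes the octamer, was likewise in none, against 2.92%. The palindromic MORE motif and the core of the Sox-Oct composite, which contains the octamer, were in none of the 11 and in 0.00941% and 0.0047% of all. Allowing 7 of 8 letters gave a match in 4 of 11, against 16.4%. These were CTTTGCAT at Pou6f1, 139 bases before the start, where Oct1 peaks lay at day 3 and day 6, GTGCAAAT at Pou2af1, 232 bases before the start, and ATGCAAGT and AAGCAAAT at the 2 starts of Pou1f1, where no peak lay. Among promoters that overlap a peak, 7.03% of those under ESC Oct1 peaks held the octamer, as did 2.24% under ESC Oct4 peaks, 3.71% at day 3 and 1.48% at day 6. A match of 7 of 8 letters was in 25% of those under ESC Oct1 peaks and 15.5% under ESC Oct4 peaks. At day 3 and day 6 it was in 12.3% and 8.96%, below the 16.4% of all promoters. A letter match is not a binding site, and no match says only that these letters are not in these 300 bases.

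Other genes were counted by the same 10 kb rule. Of 5 further POU genes (Pou3f4, Pou4f2, Pou4f3, Pou5f1 and Pou5f2), 3 had an ESC Oct1 peak and the same 3 an ESC Oct4 peak (Pou4f2, Pou5f1 and Pou5f2), and only Pou5f1 had one at day 3 and at day 6. Those later peaks lay 5834 and 5884 bp from Pou5f1 and touched both Cchcr1 and Tcf19. Of 12 genes of LIM homeodomain factors, another homeodomain class, peaks were listed at 3 for ESC Oct1, 6 for ESC Oct4, 6 at day 3 and 6 at day 6. Of 11 genes of proteins that act beside POU factors, peaks were listed at 1 for ESC Oct1, 1 for ESC Oct4, 2 at day 3 and 7 at day 6. Among these, Sox2, whose product pairs with Oct4 on DNA, had an ESC Oct1 peak within 100 kb. Within 10 kb, Sox2 and Sox11 had peaks at day 3 and day 6 and none in ESCs. For Oct1 this pattern was found at 2 of these 11 genes, at 4 of the 12 LIM genes (Isl1, Lhx1, Lhx2 and Lhx5) and at 0 of the 5 further POU genes, beside 4 of the 10 members.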

How the data were processed

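Per the submitters' processing notes, Novoalign 3.8.2 and the build mm10 (GRCm38) were used. Per the labels' protocols, chromatin was fixed with 1% formaldehyde and sequenced as paired reads of 50 bp to a stated 100 M read pairs. The authors deposited 1 peak list per library with a whole-number score per peak. The peak caller, its threshold and its control are not given in the sources used here. The 3 inputs were not analysed here. Lists were read with pandas 2.3.3 and numpy 2.4.6 in Python 3.11.15, and figures came from matplotlib 3.10.9. Starts are 1-based. Genes came from RefSeq (GRCm38.p6), which gave no exons, so peaks are not assigned to exons or introns; strand came from the promoter table. A peak belonged to a gene if any base lay in the gene body or within 10 kb, or 50 kb. Overlap meant at least 1 bp. The expected CpG number was the product of the C and G numbers divided by the length. The counting was checked on 2000 genes drawn from the gene table, with peaks planted at the lower-coordinate end of 200 of them, and 100% were found. Peaks planted there lie in every window by construction, so this checks the counting code alone. All 10 members are named by rule, and some genes of the comparison lists are not reported here. The members and lists were chosen with earlier results of these data known, and the CpG split, the counts over gene ends and the joint patterns over lists were chosen after seeing the data. Peak numbers depend on the depth, which the lists do not show, and on a threshold that is not given.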

Additional observations from a re-analysis of the deposited data

How the results depend on the processing

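In all, 20 counts were recomputed, giving 110 alternative values, of which 92 stayed within 1.5 times the reported count and 18 did not. The assignment to the nearest protein-coding gene within 10 kb and the count of 7 of 8 letters were chosen after seeing the data. No paired analysis was possible because each group had 1 library. Leaving out a replicate was not possible for the same reason. The cause of the changes was not tested, except where fewer peaks or a wider or narrower window give it by construction.

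With every list shortened to its 4867 highest scores, the ESC Oct1 peak at the start of Pou2f1 was no longer listed, so Pou2f1 had 0 of its 2 ESC Oct1 peaks. The members then had 3 ESC Oct1 and 2 ESC Oct4 peaks within 10 kb. ESC Oct4 peaks lay at 2 genes within 10 kb and at 3 within 50 kb, and ESC Oct1 peaks at 2 in each window. Within 10 kb, day 3 peaks lay at 7 genes and day 6 peaks at 6. No share of all protein-coding genes is given for the shortened lists, so these counts have no background. With the 50% higher scores, 6 ESC Oct1, 6 ESC Oct4 and 5 day 6 peaks remained within 10 kb, and 1 ESC Oct1 peak at Pou2f1. Counting the gene body alone left 1 ESC Oct1 peak at Pou2f1, 3 genes with an ESC Oct4 peak and 5 day 6 peaks. Under mutual coverage of 50% or more, 0 ESC Oct1 peaks at the members were shared with day 3 and 0 with day 6, since the later peaks at Pou2f1 are wider. Within 50 kb, 8 of 19 ESC Oct1 peaks (42.1%) were shared with ESC Oct4 and 2 (10.5%) with day 6. The octamer count of 0 member promoters became 4 with 7 of 8 letters.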

Other observations

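Many peaks in the wider windows belonged to neighbours of the POU genes. Of the 18 day 6 Oct1 peaks within 50 kb of the members, 11 lay nearer to another protein-coding gene, as did 3 of 9 at day 3, 8 of 19 ESC Oct1 and 9 of 26 ESC Oct4 peaks. The strongest of them at day 6 was a peak of 1480 bp over an end of Dazap2, 14770 bp from Pou6f1, with score 2074 (rank 266, percentile 96.6), above the peak at the start of Pou6f1 itself. It overlapped a day 3 peak with score 374 (percentile 77.1). Near Pou2f2, day 6 peaks with scores 1364 (percentile 88.9) and 1475 (percentile 90.9) lay at Dedd2 and Zfp526. Near Pou3f1, peaks were listed 270 bp from an end of Fhl3 at day 3 and 60 bp from it at day 6.

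The only ESC Oct1 peak other than that of Pou2f1 in these windows with an Oct1 peak at day 6 lay inside Gsk3a, 49944 bp from Pou2f2. It scored 71 (percentile 20.1) and overlapped an ESC Oct4 peak with score 165 (percentile 63.3).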
